A study of Mus musculus with 2 samples.

Results

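Microtubules are built from dimers of an α- and a β-tubulin, and mammals carry a small family of genes for each. The β-tubulin isotypes are much alike over the body of the protein and most variable over a short acidic tail at the C terminus. There, enzymes add chains of glutamate or glycine. In the testis, microtubules form the mitotic and meiotic spindles of germ cells, the columns that shape Sertoli cells, and later the manchette and the flagellum of the spermatid.

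The 6 β-tubulin genes described here are *Tubb2a*, *Tubb2b*, *Tubb3*, *Tubb4b*, *Tubb5* and *Tubb6*, of 39695 gene entries in the files. They were chosen by gene symbol with the measured RPKM of both libraries already known, so their levels and ratios are a description and carry no test. The files hold 8 protein-coding β-tubulin genes in all, and the other 2 are *Tubb1* and *Tubb4a*. RNA was sequenced from whole testes of 9-day-old (P9) C57BL/6 males, as the labels name them, whereas the methods describe a mixed genetic background. The control males carried 1 floxed and 1 deleted *Bcas2* allele (*Bcas2*F/-), and the mutant males carried the same alleles with the Vasa-Cre transgene (*Bcas2*F/-;Vasa-Cre), which recombines in germ cells from before birth. The controls therefore already lacked 1 functional *Bcas2* allele. The number of mice in each library is not given in the sources used here.

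There was 1 library per genotype, resting on 19918750 counted reads in control and 19331687 in mutant testes, both obtained from the RPKM values. These totals are well below the mapped reads the paper reported. Whether a read pair was counted once is not given in the sources used here. No difference between the libraries has a replicate library, no p-value is given, and each 95% interval covers counting error only. Separately, the paper reported lower mature *Tubb4b* mRNA, at similar pre-mRNA levels, in P9 mutant testes by real-time RT-PCR. In whole testes, fewer cells of a type and less RNA per cell cannot be told apart. *Bcas2*, the targeted gene, had 39.5 RPKM in control and 25.7 RPKM in mutant testes, from 1410 and 888 reads. The markers of spermatogonia summed to 769 RPKM in control and 601 RPKM in mutant testes, those of meiotic prophase to 172 and 128 RPKM, and those of Sertoli cells to 657 and 729 RPKM.

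The genes are annotated on GRCm38 in GENCODE M21, each with 4 exons in its longest coding transcript. *Tubb4b* (chr2:25222160-25224702) and *Tubb5* (chr17:35833921-35838306) are read from the minus strand, and *Tubb3* (chr8:123411424-123422015) from the plus strand. *Tubb2a* (chr13:34074274-34078007) and *Tubb2b* (chr13:34126748-34130466) are neighbours on the minus strand with 48740 bases between them, and *Tubb6* is on another chromosome. The coding sequences of *Tubb2a* and *Tubb2b* differed at 47 of 1338 bases, and the proteins at 2 of 445 residues. *Tubb4b* and *Tubb5* were 97.5% identical in protein but only 82.2% identical in coding sequence. Protein identity over all pairs of members ran from 90.2% to 99.6%.

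The tails are shown because they vary between most of the isotypes and because they carry the glutamates that are modified after translation. Each line gives the coding strand from codon 429 to the stop codon, 5′ to 3′, as read from the GENCODE M21 transcripts, with glutamate codons in capitals.
Tubb4b: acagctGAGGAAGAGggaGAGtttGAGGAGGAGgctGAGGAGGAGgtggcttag
Tubb5: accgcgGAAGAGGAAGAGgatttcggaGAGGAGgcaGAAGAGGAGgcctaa
Tubb2a: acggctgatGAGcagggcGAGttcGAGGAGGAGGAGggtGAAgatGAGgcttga
Tubb2b: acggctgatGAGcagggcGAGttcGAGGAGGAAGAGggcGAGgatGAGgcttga
Tubb3: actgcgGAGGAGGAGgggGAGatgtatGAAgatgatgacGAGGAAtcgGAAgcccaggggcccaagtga

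*Tubb4b* had the most glutamates of these tails, 10 in 17 residues, and no aspartate. *Tubb5* had 9 glutamates in 16 residues and 1 aspartate. The tails of *Tubb2a* and *Tubb2b* held 8 glutamates and 2 aspartates each, also in 17 residues. *Tubb3* had the longest tail, 22 residues with 8 glutamates and 3 aspartates. All 8 β-tubulin genes encoded methionine, arginine, glutamate and isoleucine at the start of the protein, the short N-terminal signal through which free tubulin lowers the stability of its own mRNA. The first coding bases were atgagggagatc in *Tubb4b* and *Tubb3*, atgagggaaatc in *Tubb5*, atgcgcgagatc in *Tubb2a* and atgcgagagatc in *Tubb2b*.

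*Tubb5* and *Tubb4b* were the abundant isotypes in P9 testes of either genotype, and *Tubb4b* was the member whose level differed most between them. *Tubb5*, a broadly expressed isotype that is high in dividing cells, was at 687 RPKM in control and 684 RPKM in mutant testes. *Tubb4b*, an isotype found in many tissues and a main β-tubulin of cilia and flagella, was at 432 RPKM in control and 283 RPKM in mutant testes. RPKM divides reads by gene length and library size, so that levels of isotypes can be set side by side.

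**Figure D1:**
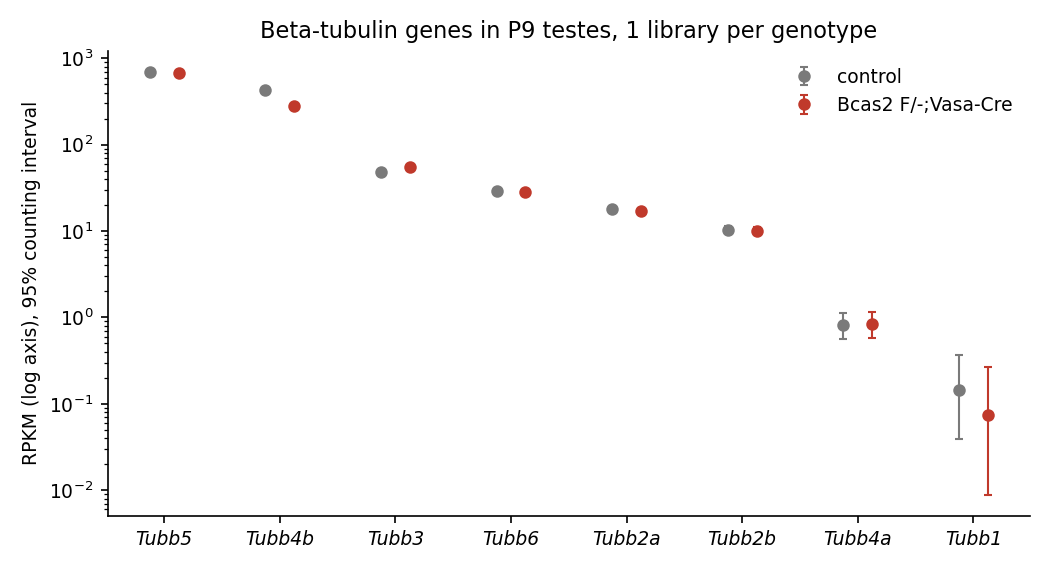
RPKM of the 8 protein-coding β-tubulin genes on a log axis, in the control library (grey) and the *Bcas2*F/-;Vasa-Cre library (red), with 95% Poisson intervals that cover counting error only. *Tubb4b* is at 432 RPKM in control and 283 RPKM in mutant testes, and the other members lie close together in both libraries.

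The other members were expressed at much lower levels. *Tubb3*, best known as the neuronal isotype and also described in Sertoli cells, was at 47.7 RPKM in control and 55.6 RPKM in mutant testes. *Tubb6*, a widely expressed minor isotype, was at 29.4 and 28.1 RPKM. *Tubb2a* was at 18.03 and 17.1 RPKM, and *Tubb2b* at 10.4 and 9.96 RPKM. Both are prominent in brain, and *Tubb2b* serves in neuronal migration. The order of levels was *Tubb5*, *Tubb4b*, *Tubb3*, *Tubb6*, *Tubb2a* and *Tubb2b* in each library, and the counting intervals of neighbours in this order did not overlap. The 2 genes outside the members were close to the limit of detection. *Tubb4a*, a brain isotype, had 36 reads in each library, 0.811 and 0.836 RPKM. *Tubb1*, the isotype of platelets and megakaryocytes, had 4 reads in control and 2 in mutant testes.

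The change of each gene was expressed as the log2 ratio of RPKM + 1 in mutant over control testes, and the interval belongs to the ratio without the added 1. *Tubb4b* fell by 0.61 on this scale (interval −0.66 to −0.57, 10454 and 6642 reads), so that 65.5% of the control RPKM was left. *Tubb3* was higher, with a log2 ratio of 0.22 (0.13 to 0.31, 1775 and 2006 reads). The interval of *Tubb3* lay above 0, and that of *Tubb4b* below 0. The intervals of the remaining members included 0. The ratio was −0.01 for *Tubb5* (−0.04 to 0.03, 17426 and 16852 reads), −0.07 for *Tubb6* (−0.20 to 0.06, 1030 and 954 reads), −0.07 for *Tubb2a* (−0.25 to 0.10, 569 and 523 reads) and −0.06 for *Tubb2b* (−0.27 to 0.15, 398 and 370 reads).

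*Tubb4b* was the only member more than 1.5-fold lower, and no member was more than 1.5-fold higher. Of the 14831 genes that averaged 1 RPKM or more over the 2 libraries, 1.69% were past 1.5-fold on the lower side in mutant testes and 1.57% on the higher side. Of the 2661 genes that averaged 50 RPKM or more, which include *Tubb5*, *Tubb4b* and *Tubb3*, the shares were 0.451% and 0.188%. The members had a median log2 ratio of −0.06, beside 0.02 over the 14831 genes and −0.01 over the 2661 genes. The other 5 members ranged from −0.07 to 0.22, a range that held 55.9% of the 14831 genes. When each library was rescaled to 1000000, *Tubb4b* stood at −0.58, just short of 1.5-fold (0.585 on the log2 scale).

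**Figure D2:**
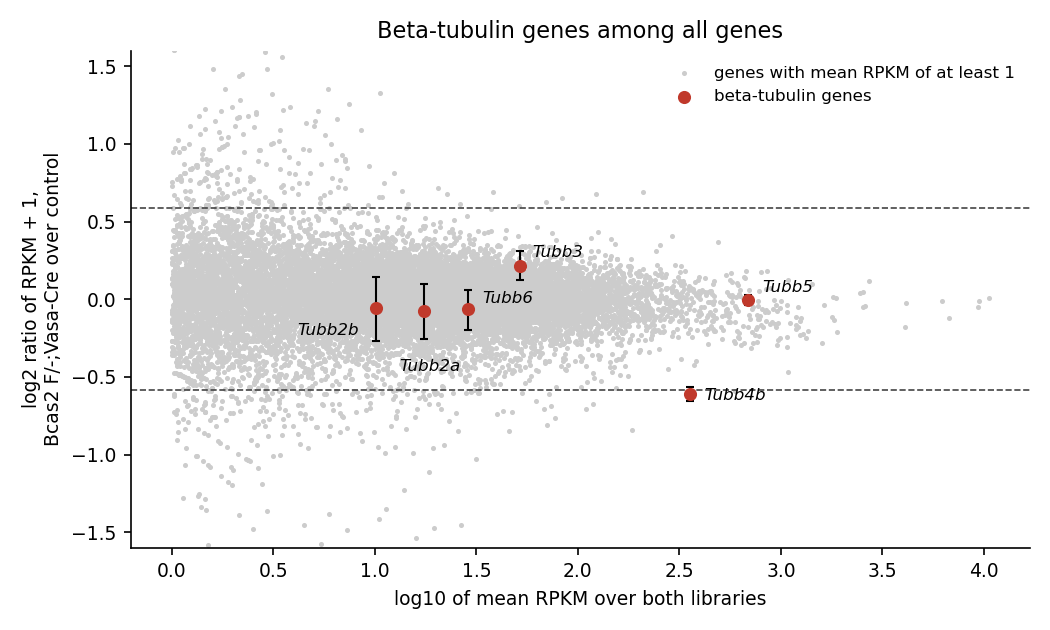
Log2 ratio of RPKM + 1 (*Bcas2*F/-;Vasa-Cre over control) against the log10 of the mean RPKM for 14831 genes averaging 1 RPKM or more (grey) and the 6 β-tubulin genes (red), with 95% counting intervals of the ratio without the added 1 and dashed lines at 1.5-fold. *Tubb4b* lies at −0.61, at the lower edge of genes of its level, and the other members lie between −0.07 and 0.22. A further 32 genes lie beyond the axis limit of 1.6.

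The summed RPKM of the 8 β-tubulin genes was 1225 in control and 1079 in mutant testes, a log2 ratio of −0.18 (−0.21 to −0.16). *Tubb4b* alone differed by −149 RPKM, against −147 RPKM for the whole sum. Without *Tubb4b*, the remaining genes summed to 793 RPKM in control and 796 RPKM in mutant testes, a log2 ratio of 0.00 (−0.02 to 0.03).

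As a share of this sum, *Tubb4b* made up 35.3% (34.7 to 35.8) in control and 26.2% (25.7 to 26.8) in mutant testes. The share was lower by 9.04 points, with a counting interval of the difference from −9.80 to −8.28. *Tubb5* went from 56.0% (55.5 to 56.6) to 63.4% (62.9 to 64.0), a gain of 7.39 points at an RPKM that hardly differed. *Tubb3* went from 3.89% to 5.15%. The 3 smallest members gained little, *Tubb6* from 2.40% to 2.60%, *Tubb2a* from 1.47% to 1.58% and *Tubb2b* from 0.849% to 0.923%, and with the deposited RPKM the counting intervals of their differences included 0. *Tubb4a* and *Tubb1* together stayed under 0.1% in each library.

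The shares depended on the gene length behind the RPKM. The length taken for *Tubb5* was 1274 bases, where its longest coding transcript in GENCODE M21 has 2649. For *Tubb4b* it was 1215 bases, where that transcript has 1598. Whole reads in both libraries were given by 9 lengths for *Tubb5* and 2 for *Tubb4b*. The length nearest to an annotated transcript length or their mean was taken. Another of these lengths would change the reads and full-length values of that gene in proportion, so the full-length comparisons below hold only for the lengths taken. For *Tubb2a* (1584 and 1610 bases), *Tubb3* (1868 in each) and *Tubb6* (1757 and 1758) the lengths were nearly the same, and for *Tubb2b* they were 1922 and 2182 bases. With the same reads divided by the longest coding transcript, a scale chosen after seeing the data, *Tubb5* and *Tubb4b* were at 330 and 328 RPKM in control testes, and their counting intervals overlapped (325 to 335 and 322 to 335). In mutant testes they were at 329 and 215 RPKM. The ratio of *Tubb4b* to *Tubb5* in control testes was 0.629 (0.614 to 0.645) with the deposited RPKM and 0.995 (0.971 to 1.02) on the full-length scale, and in mutant testes 0.413 and 0.653. On the full-length scale *Tubb4b* held 43.0% of the sum in control and 32.9% in mutant testes, *Tubb5* 43.2% and 50.3%, and *Tubb3* 6.25% and 8.49%. How far *Tubb5* stood above *Tubb4b* in control testes therefore depended on the length used, whereas the ratio of each gene between the libraries did not. *Tubb6* held 3.85% and 4.29% on the full-length scale, and the counting interval of this difference (0.0878 to 0.791 points) lay above 0, unlike with the deposited RPKM.

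**Figure D3:**
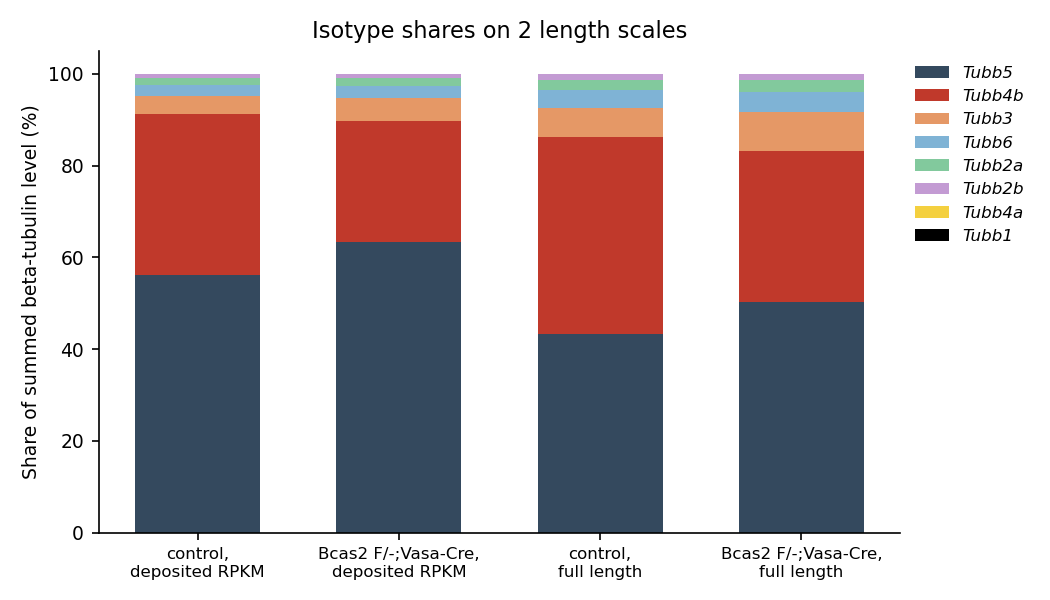
Stacked shares (%) of the summed β-tubulin level for the 8 genes in each library, with the deposited RPKM (left pair of bars) and with the same reads divided by the longest coding transcript (right pair). *Tubb4b* falls from 35.3% to 26.2% on the first scale and from 43.0% to 32.9% on the second, and *Tubb5* widens on each.

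Parts of some members cannot be read apart from other genes. Of the windows of 100 bases in the *Tubb2a* transcript, 36.9% also occurred in another gene's transcript, mostly in *Tubb2b*, and 27.7% of those in *Tubb2b*, mostly in *Tubb2a*. For *Tubb4b* 30.6% of the windows occurred elsewhere, mostly in the processed pseudogene *Tubb4b-ps1*, which was listed at 0 in both libraries. No such window was shared by *Tubb3*, *Tubb5* or *Tubb6*. How reads that match several genes were counted is not given in the sources used here, so the levels of *Tubb2a*, *Tubb2b* and *Tubb4b* are uncertain. Added together, *Tubb2a* and *Tubb2b* had 967 reads in control and 893 in mutant testes, a log2 ratio of −0.07. *Tubb4b* also overlaps *Fam166a* on the other strand by 121 exonic bases, and *Fam166a* was at 0.0728 and 0.30 RPKM.

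The α-tubulin partners, a list that includes genes named in earlier work on these data, also differed from gene to gene. *Tuba1b* (389 and 397 RPKM) and *Tuba1a* (388 and 392.1 RPKM) had log2 ratios of 0.03 and 0.02. *Tuba3a* (237 and 132 RPKM), *Tuba3b* (136 and 83.1 RPKM) and *Tuba4a* (5.72 and 3.48 RPKM) stood at −0.84, −0.71 and −0.59. These 3 of 6 expressed genes were past 1.5-fold, beside 1.69% of the 14831 genes on the lower side. *Tuba4a*, with 234 and 138 reads, was barely past that line. With a mean RPKM of at least 5, 2 genes were past it. With the deposited RPKM, the α-tubulins summed to 1206 RPKM in control and 1060 RPKM in mutant testes, close to the β-tubulin sums. On the full-length scale the β-tubulins summed to 764 and 654 RPKM, and no α-tubulin sum was made on that scale.

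The genes that fold, regulate and modify tubulin were then examined as 7 lists with 52 genes, of which 45 were expressed, averaging 1 RPKM or more. None was more than 1.5-fold lower or higher, beside 1.69% and 1.57% of the 14831 genes, too small a share to set 45 genes apart. The log2 ratios of the 45 genes ran from −0.34 to 0.30 with a median of −0.07. Of them 30 were below 0 and 15 above, beside 6873 below and 7958 above of the 14831 genes. The chaperonin CCT, the ring that folds newly made α- and β-tubulin, had a median of −0.12. It was the one list of the 7 in which every expressed member was below 0, 8 of 8 (also after rescaling). These 8 averaged 50 RPKM or more, a level at which 1397 of 2661 genes were below 0. *Cct8* was at 484 and 461 RPKM and *Cct5* at 411 and 381 RPKM, log2 ratios of −0.07 and −0.11, and the furthest subunit was at −0.23. Prefoldin, which hands nascent tubulin to CCT, had a median of −0.03, with *Pfdn5* at 267 and 257 RPKM and *Pfdn6* at 147 and 139 RPKM.

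The cofactors that assemble the dimer had a median of −0.15 over 7 genes. *Tbca*, which holds free β-tubulin, was at 268 and 269 RPKM, a log2 ratio of 0.00, and *Tbcb*, which binds α-tubulin, at 117 and 99.1 RPKM, a log2 ratio of −0.23. Of the autoregulation genes, *Ttc5*, which reads the N-terminal signal of nascent tubulin at the ribosome, was at 36.3 and 37.9 RPKM. *Cnot11*, a deadenylase subunit, was at 17.7 and 17.1 RPKM. Their log2 ratios were 0.06 and −0.05. The list's other gene, *Scaper*, was at 15.3 and 11.9 RPKM, a log2 ratio of −0.33 (−0.47 to −0.25).

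The lists of enzymes that act on the tails had medians close to 0, with single genes further off in each direction. Of the 15 listed for adding glutamate or glycine, 12 were expressed, with a median of −0.02 and a range from −0.32 to 0.20. *Ttll4*, which starts glutamate chains and prefers β-tubulin, was the highest at 60.2 and 69.2 RPKM, a log2 ratio of 0.20, and *Tpgs1*, a subunit of the glutamylase complex, was at 15.5 and 15.1 RPKM. Of the deglutamylases, *Agtpbp1*, which shortens the chains, was at 18.4 and 17.2 RPKM, and *Agbl5*, which removes the glutamate at the branch point, at 17.7 and 16.0 RPKM. The list had a median of −0.09 over 3 expressed genes, with a range from −0.14 to 0.30. The modifiers of α-tubulin had a median of 0.00 over 6 genes. *Hdac6*, the deacetylase, was at 138 and 135 RPKM, and *Svbp*, the partner of the detyrosinating vasohibins, at 49.9 and 39.1 RPKM, a log2 ratio of −0.34.

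**Figure D4:**
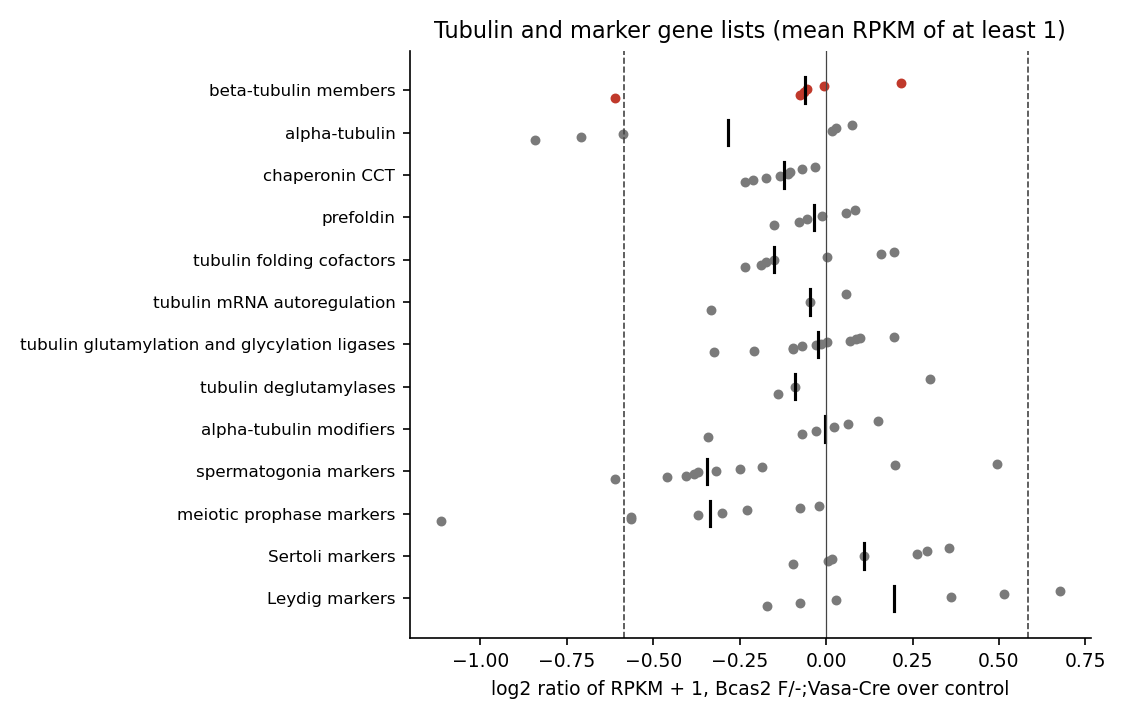
Log2 ratio of RPKM + 1 (*Bcas2*F/-;Vasa-Cre over control) of each expressed gene in the tubulin and main marker lists, with list medians as black bars and dashed lines at 1.5-fold. *Tubb4b* at −0.61 stands apart from the other β-tubulins, the folding and modifying genes lie between −0.34 and 0.30, and the medians of the spermatogonia and meiotic prophase markers are −0.34.

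Most germ cell markers were lower in the mutant library, as was *Tubb4b*. Of 10 spermatogonia markers 8 were below 0, with a median of −0.34, whereas 6873 of the 14831 genes were below 0. *Uchl1* was at 279 and 224 RPKM and *Dazl*, an RNA-binding protein of germ cells, at 165 and 125 RPKM, and *Stra8*, a gatekeeper of meiotic entry, was more than 1.5-fold lower at 87.2 and 56.8 RPKM. All 8 meiotic prophase markers were below 0, with a median of −0.34. *Smc1b*, a meiotic cohesin subunit, went from 25.6 to 11.3 RPKM, and *Tex101* was at 46.8 and 39.8 RPKM and *Sycp2* at 23.3 and 22.0 RPKM. By real-time RT-PCR in P9 testes, however, the paper reported similar levels of *Nanos2*, *Mvh* (*Ddx4*), *Sohlh1*, *Sohlh2*, *c-kit*, *Dazl* and *Stra8* in both genotypes. It reported significantly lower *Dmc1*, *Scp1*, *Scp3* and *Smc1b*. In slightly older testes, it found no significant difference in the number of PLZF-positive spermatogonia. The part of germ cell number in the *Tubb4b* values was not tested.

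Of 7 expressed Sertoli cell markers 6 were above 0, with a median of 0.11, whereas 7958 of the 14831 genes were above 0. *Cldn11*, a tight junction protein of Sertoli cells, was at 232 and 234 RPKM and *Amh* at 134 and 172 RPKM, and *Rhox5* was listed at 0 in both libraries. The Leydig cell markers had a median of 0.20, with *Hsd3b1* at 189 and 168 RPKM and *Cyp17a1* more than 1.5-fold higher at 94.8 and 152 RPKM. The peritubular myoid, endothelial and macrophage markers had medians of −0.05, −0.10 and −0.16. Neuronal markers summed to 3.91 RPKM in control and 3.30 RPKM in mutant testes, with a median of −0.27 over the 2 expressed ones. Red cell and platelet markers had a median of −0.30, with 5 of 6 below 0, and summed to 803 and 792 RPKM. The red cell anion exchanger *Slc4a1* was the one of them more than 1.5-fold lower, at 15.7 and 0.607 RPKM, a log2 ratio of −3.38. The part of any of these cell types in the *Tubb3* values was not tested.

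Over these 2 libraries, the genes averaging 50 RPKM or more that came closest to the log2 ratio of *Tubb4b* were *Stra8* (−0.61), *Mov10l1* (−0.60), *Rpl35a* (−0.59), *Hells* (−0.57) and *Crabp1* (−0.65). Their RPKM in control and mutant testes was 87.2 and 56.8 for *Stra8*, 64.0 and 41.9 for *Mov10l1*, 712 and 472 for *Rpl35a*, 184 and 124 for *Hells*, and 76.1 and 48.1 for *Crabp1*. Likeness over 2 libraries is a single ratio and says only that these genes differed to the same extent.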

How the data were processed

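RNA was measured in whole P9 testes, with 1 library per genotype, made with a NEBNext Ultra kit. The authors aligned paired-end reads to mm10 with TopHat2 (version 2.0.9 in the submitters' processing notes), used HTSeq for gene counts and deposited RPKM values for 39695 entries, zeros included. The annotation release and the strand setting are not given in the sources used here. Identifiers were matched to GENCODE M21 on GRCm38, the same assembly as mm10 (37606 entries). Sequences were read from its transcripts.

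Library sizes were obtained from genes with 1 annotated transcript, where 885 of 886 in control and 898 of 900 in mutant testes gave the same whole number. Reads of a gene were the whole numbers (within 0.005 reads in each library) at the whole gene length nearest to an annotated transcript length or their mean. Another length that also gave whole reads would change them in proportion to the length. Ratios are log2 of RPKM + 1. Counts past 1.5-fold used genes averaging 1 RPKM or more. Intervals were Clopper-Pearson for ratios, Poisson for levels, and by error propagation from Poisson counts for shares, sums and level ratios, at 95%, and cover counting error only. Procedures were run on simulated libraries in which each gene length was the mean of its annotated transcript lengths, so recovery at other lengths was not tested. Named genes were the β-tubulins, *Bcas2*, the 2 highest of each pathway list and of the germ, Sertoli and Leydig marker lists, list genes past 1.5-fold or at 0, and the 5 genes closest to *Tubb4b*. Genes that share sequence with a member, *Scaper*, *Sohlh2* and *Nanos2* were named after their values were seen. So were the markers named with the paper's real-time RT-PCR. Members and lists were chosen with earlier results of these data known. Alternatives were pseudocounts, scalings, filters, recovered reads and the denominator of the shares. Python 3.11.15, numpy 2.4.6, scipy 1.17.1, pandas 2.3.3, Biopython 1.88 and matplotlib 3.10.9 were used.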

Additional observations from a re-analysis of the deposited data

How the results depend on the processing

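The log2 ratios of the 6 members and of *Bcas2* moved by less than their counting intervals under each pseudocount, scaling and quantity tried. With RPKM rescaled to 1000000, *Tubb4b* and *Bcas2* both came to −0.58, inside 1.5-fold. The log2 ratio of the summed β-tubulin RPKM was −0.16 after rescaling and −0.22 with full-length transcripts. In recovered reads *Tubb4b* held 33.0% in control and 24.3% in mutant testes and *Tubb5* 55.0% and 61.5%, a change of 6.55 points for *Tubb5*. With full-length transcripts, chosen after seeing the data, *Tubb4b* held 43.0% and 32.9%, a change of −10.1 points, and *Tubb5* 43.2% and 50.3%. The lengths of the genes set these shares, and for *Tubb5* 9 lengths gave whole reads. Leaving *Tubb4a* and *Tubb1* out of the sum changed no share beyond counting error.

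Counts of all genes past 1.5-fold moved more, and the cause was not tested. Pseudocounts of 0.1 and 0.01 gave 457 and 485 genes lower and 454 and 491 higher. Without a filter 468 were lower and 511 higher, with a mean RPKM of at least 5 104 were lower and 46 higher, and after rescaling 356 were lower and 434 higher. The median of the α-tubulin list was 0.02 without a filter and with a mean RPKM of at least 5, against −0.28. No paired analysis was possible because each genotype had 1 library, and for the same reason no replicate could be left out.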
